A study of Rattus norvegicus with 12 samples.

Results

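The miR-30 family was measured by small RNA sequencing of rat gastric mucosa. Its members were the rows of the deposited count tables named miR-30a, miR-30b, miR-30c, miR-30d or miR-30e, with either arm of the hairpin, which gave 11 mature miRNAs (among them rno-miR-30b-5p, rno-miR-30e-5p and rno-miR-30e-3p, written without the rat prefix below) 5 from the 5p arm and 6 from the 3p arm, of 649 in the tables together. Of 3 groups with 4 libraries each, the XLHZ group had MNNG for 24 weeks and the herbal Xianglianhuazhuo formula for 60 days. The model group had the same MNNG exposure without the formula, and the normal group is labelled as untreated. MNNG (N-methyl-N'-nitro-N-nitrosoguanidine), an alkylating mutagen, was given in the drinking water at 180 µg/ml, together with 2% sodium salicylate by gavage and 2 days of feeding alternated with 1 day of fasting, to induce chronic atrophic gastritis, in which gastric glands are lost. The sources used here give no strain, sex or age, and all rats ate common chow. Whether each library is its own rat is not labelled, so the p-values speak for the spread among libraries, which may be technical.

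A miRNA hairpin is cut into a duplex, and one strand, the guide, is loaded into an Argonaute protein while the passenger strand is mostly lost. The guide finds target mRNAs mainly through its seed, bases 2 to 8 counted from its 5′ end. In the miR-30 family the 5p arms are the usual guides and share a seed. The family is best known for keeping epithelial cells differentiated, in part through repression of Snai1, a transcription factor of epithelial-mesenchymal transition, and for repressing the autophagy gene Becn1. Some hairpins also load the 3p arm.

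The sequences below show which arms share a seed and how little separates some of them. They are mature sequences from RefSeq on rat build GRCr8, written 5′ to 3′ with the seed in capitals, and 6 of the 11 arms matched by name.
miR-30a-5p: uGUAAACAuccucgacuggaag
miR-30e-5p: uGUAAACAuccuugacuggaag
miR-30c-5p: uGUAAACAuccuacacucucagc
miR-30a-3p: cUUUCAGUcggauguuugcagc
miR-30c-1-3p: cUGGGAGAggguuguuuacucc
miR-30c-2-3p: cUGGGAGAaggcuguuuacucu
The 3 printed 5p arms carried 1 seed, GUAAACA, and were identical over their first 12 bases. miR-30a-5p and miR-30e-5p differed by the single substitution C13U (miR-30a-5p base first, positions counted from 1 at the 5′ end), so a sequencing error at that base moves a read from one to the other. miR-30c-1-3p and miR-30c-2-3p shared a different seed and differed by G9A, U12C and C22U. miR-30a-3p had another seed, UUUCAGU. The 3p side of the Mir30e hairpin below also holds these bases. miR-30e-3p was not matched by name, so its seed was not compared. Only miRNAs with a sequence matched by name could be searched for the seed of the 5p arms. Among those in the deposited tables, 1 further carried it, miR-384-5p (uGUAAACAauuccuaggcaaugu, chromosome X). It measured 73.6 ± 7.86 CPM in XLHZ, 79.3 ± 23.9 CPM in model and 70.5 ± 10.1 CPM in normal libraries. CPM here and below is the count relative to all mature miRNA counts of the library (the usual CPM), scaled between libraries with TMM factors (trimmed mean of M values). Means are given with SD over 4 libraries.

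The hairpins show where both arms come from, with the matched mature arms in capitals.
Mir30a: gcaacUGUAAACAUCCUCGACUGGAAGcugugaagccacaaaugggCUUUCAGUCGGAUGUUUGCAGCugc
Mir30c2: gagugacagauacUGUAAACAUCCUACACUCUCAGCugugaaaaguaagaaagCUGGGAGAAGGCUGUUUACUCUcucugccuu
Mir30c1: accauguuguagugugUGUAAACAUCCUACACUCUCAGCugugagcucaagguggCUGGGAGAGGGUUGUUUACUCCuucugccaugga
Mir30e: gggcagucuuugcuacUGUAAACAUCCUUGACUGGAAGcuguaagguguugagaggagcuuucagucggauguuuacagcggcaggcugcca
On GRCr8, Mir30a lies at chr9:33233941-33234011 and Mir30c2 at chr9:33253682-33253765, both on the plus strand and 19670 bases apart. Mir30c1 (chr5:139634455-139634543) and Mir30e (chr5:139637450-139637541) lie on the minus strand, 2906 bases apart and within the span of Nfyc, the gene of a subunit of the CCAAT-binding factor NF-Y. Mir30b and Mir30d are both annotated on chromosome 7. miR-30c-5p is identical in Mir30c1 and Mir30c2, so its count is the sum of both loci, while their 3p arms are counted apart.

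Libraries held 9094962 to 11556058 counts of mature miRNAs. The labelled tissue was described with 12 lists of cell type miRNAs. Only miRNAs with a row in the deposited tables enter these lists, so an undetected marker would not show. The glandular epithelial list (miR-200a, miR-200b, miR-200c, miR-141 and miR-429) summed to 73136 to 85171 CPM in XLHZ, 54147 to 85725 CPM in model and 68204 to 80518 CPM in normal libraries. A smooth muscle miRNA was also abundant: miR-143-3p took 15.7 ± 5.93% of counts in XLHZ, 21.8 ± 6.69% in model and 16.0 ± 3.14% in normal libraries. Model libraries 2 and 3 stood highest, at 29.2% and 25.1%. In such bulk tissue, fewer cells of a type and less RNA per cell cannot be told apart.

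All 11 arms were detected in every library, the 5p arms far above the 3p arms. The 5p arms together made up 4.68 ± 0.658% of all counts in XLHZ, 3.63 ± 1.02% in model and 4.07 ± 0.187% in normal libraries. They were 97.4 ± 0.177%, 97.5 ± 0.237% and 97.4 ± 0.135% of the family's own counts in these groups, in that order. Library by library, the summed 5p level was 49211, 42804, 43302 and 43183 CPM in XLHZ, 40019, 38965, 29865 and 43291 CPM in model, and 37988, 42458, 39735 and 38629.6 CPM in normal libraries. Model library 3 was the lowest of all 12 and XLHZ library 1 the highest. The other 3 XLHZ libraries lay within the span of the model libraries or just past it.

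**Figure D1:**
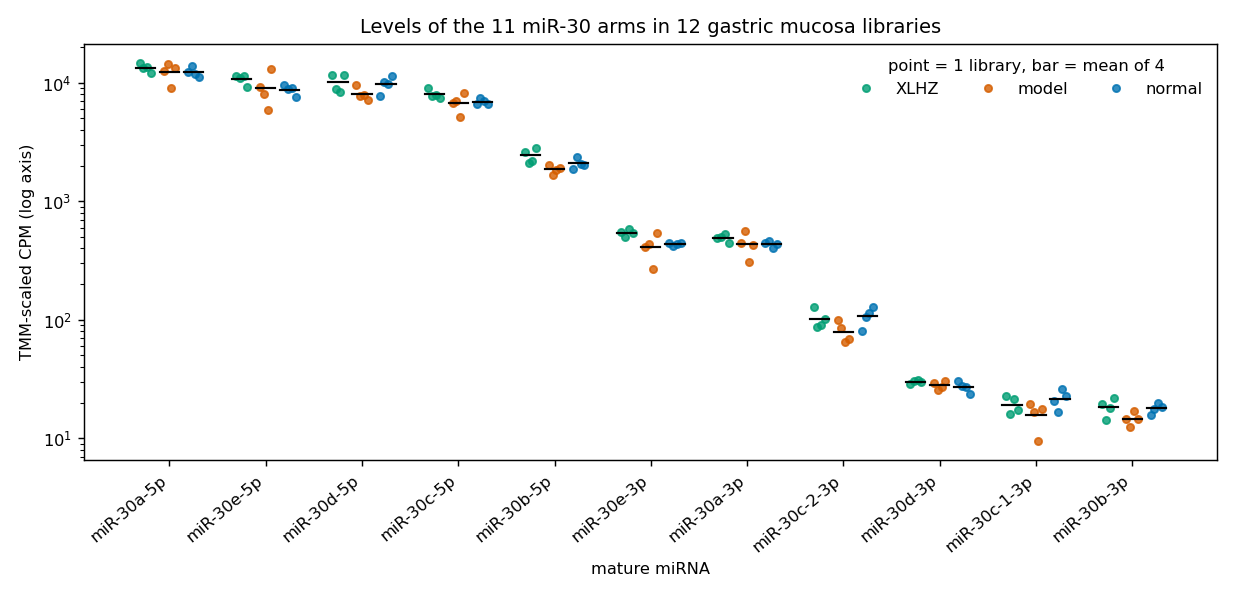
TMM-scaled CPM (log axis) of each miR-30 arm, with a point for each of the 4 XLHZ, 4 model and 4 normal libraries and a bar at the group mean. The 5 arms on the left, all 5p, have mean levels of 2127 CPM or more over the 12 libraries, and the 6 3p arms have mean levels of 464 CPM or less.

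miR-30a-5p was the most abundant member, with rank 20 of 648 miRNAs by mean level (12674 CPM over 12 libraries). It measured 14677, 13329, 13544 and 12085 CPM in XLHZ, 12574, 14480.4, 9061 and 13192 CPM in model, and 12351, 13836, 11802 and 11163 CPM in normal libraries. It was above miR-30e-5p in 12 of 12 libraries. Next came miR-30e-5p (rank 25), miR-30d-5p (rank 26), miR-30c-5p (rank 33) and miR-30b-5p (rank 60). miR-30e-5p and miR-30d-5p did not keep one order: miR-30e-5p was the higher in 5 of 12 libraries. miR-30d-5p was above miR-30c-5p in 11 of 12, and miR-30c-5p above miR-30b-5p in all 12, by 3.39 times on average. Mature miRNAs are of nearly 1 length, so no length scaling was applied. Adapter ligation can favour some sequences over others, which bears on these orders between miRNAs but not on 1 miRNA between groups.

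Among the passenger arms, miR-30e-3p and miR-30a-3p averaged 464 and 454 CPM over 12 libraries (ranks 93 and 95), and miR-30e-3p was the higher in 8 of 12. miR-30c-2-3p followed at 95.7 CPM and was above miR-30d-3p (28.4 CPM) in 12 of 12. miR-30c-1-3p (18.9 CPM) and miR-30b-3p (16.9 CPM) came last, with miR-30c-1-3p the higher in 9 of 12. The shallowest value of the family was 88 counts of miR-30c-1-3p, in model library 3. The 5p arms had 15332 to 156090 counts per library.

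The first comparison asked whether the family differed between atrophic and normal mucosa. No arm passed in either direction. In edgeR's quasi-likelihood test with Benjamini-Hochberg adjustment over 403 miRNAs, 0 of 11 arms had an adjusted p under 0.05, where 0.248% of all miRNAs did. At an unadjusted p under 0.05 there were also 0 of 11, where 4.22% of all miRNAs were higher and 2.98% lower, and DESeq2 and limma-trend called 0 of 11. For no arm were the groups fully apart, which held as higher for 1.49% and as lower for 1.99% of all miRNAs. The log2 fold change was negative for 8 arms and positive for 3, with a median of -0.083 over the 11 arms and of -0.0072 over all miRNAs tested, of which 49.1% were positive. This split moved with the scaling, with 0 of 11 positive on library totals alone and 5 of 11 with upper-quartile factors.

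**Figure D2:**
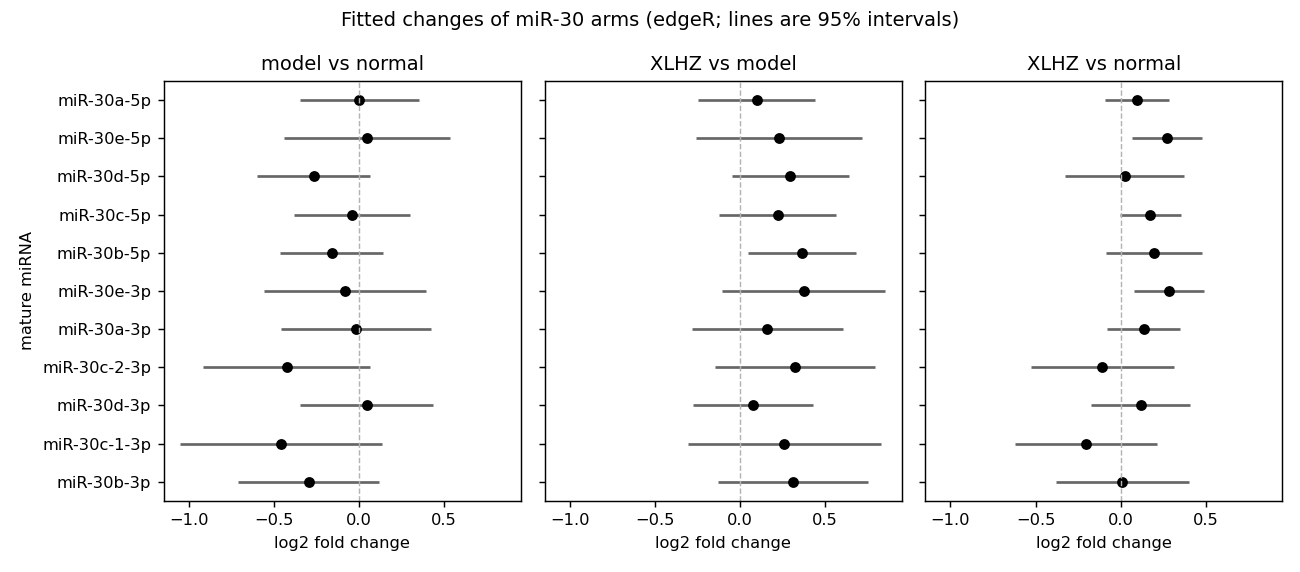
Fitted log2 fold change of each miR-30 arm in 3 comparisons (points, edgeR), with 95% intervals as lines and a dashed line at no change. All 11 points lie right of the dashed line in XLHZ against model, 9 of 11 in XLHZ against normal and 3 of 11 in model against normal.

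Among the guides, miR-30d-5p had the largest difference in this comparison. It measured 9545, 7757, 7915 and 7157 CPM in model libraries, against 7715, 10039, 9792 and 11333 CPM in the normal ones. The groups overlapped, with 1 model library below all normal ones and normal library 1 among the model values. The log2 fold change was -0.27 (SE 0.15, 95% interval -0.60 to 0.067, adjusted p = 0.642). miR-30b-5p averaged 1865 ± 144 CPM in model and 2081 ± 203 CPM in normal libraries, and 2 of 4 model libraries lay below all normal ones (log2 fold change -0.16, adjusted p = 0.736). The value was -0.058 without normal library 2, and that of miR-30d-5p was -0.16 without normal library 4.

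For the other 3 guides the group means were close. miR-30a-5p had a log2 fold change of 0.0016, with a 95% interval of -0.35 to 0.35. miR-30e-5p had one of 0.047 (-0.44 to 0.54) and miR-30c-5p one of -0.041 (-0.38 to 0.30). At this spread the intervals do not exclude differences up to about their ends. On library totals alone the signs of miR-30a-5p and miR-30e-5p were negative, and with upper-quartile factors that of miR-30c-5p was positive. The 2 passenger arms of miR-30c had the lowest values of the family: miR-30c-1-3p averaged 15.8 ± 4.39 CPM in model and 21.6 ± 3.97 CPM in normal libraries (log2 fold change -0.46, SE 0.27), and miR-30c-2-3p averaged 79.5 ± 16.0 CPM and 107 ± 20.2 CPM in the same order (-0.43, SE 0.22), each with an adjusted p of 0.642. Without model library 3 the value of miR-30c-1-3p was -0.22.

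The spread between model libraries was wide for the miR-30e arms. miR-30e-5p measured 9135, 8073, 5928 and 12920.4 CPM in model libraries 1 to 4, against 9484, 8759, 9025 and 7536 CPM in normal ones. The model values thus lay on both sides of the normal ones. The SD of log2 CPM was 0.465 in the model and 0.143 in the normal group, where the median over the 148 miRNAs with a mean of at least 100 CPM was 0.355 and 0.197. miR-30e-3p, the other arm of that hairpin, measured 414, 433, 266 and 538 CPM in model libraries 1 to 4, against 445, 419, 435 and 445 CPM in normal ones, with SDs of 0.425 and 0.0408. Of the 148 miRNAs, 3.38% had a smaller SD than miR-30e-3p in normal libraries, and 58.1% did in model libraries. A wider model spread was not limited to miR-30e. The SD was 0.363 in the model and 0.0786 in the normal group for miR-30a-3p. For miR-30c-1-3p it was 0.471 and 0.272 in that order. miR-30b-5p went the other way, with an SD of 0.114 in the model and 0.138 in the normal group. So did miR-30d-5p (0.176 and 0.232) and miR-30d-3p (0.110 and 0.150).

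Model library 3 was the lowest of the 12 libraries for 7 of the 11 arms: both arms of miR-30a and of miR-30e, miR-30c-5p and both 3p arms of miR-30c. It was not the lowest for any arm of miR-30b or miR-30d. Without it, the median log2 fold change of the 11 arms was 0.12, with 6 positive and 5 negative, and again no arm passed. Smooth muscle miRNAs were also high in some model libraries: miR-143 and miR-145, 4 arms in all, summed to 145152 to 403505 CPM in model and 133246.5 to 219379 CPM in normal libraries, with 4 of 4 positive and 0 passing. Model library 2, whose miR-143-3p share was higher still, held the highest miR-30a-3p of all 12 libraries (562 CPM) and the lowest miR-30b-5p (1675 CPM) and miR-30b-3p (12.3 CPM). Lists other than smooth muscle moved too in model against normal. Striated muscle was positive for 5 of 6 (median 0.89), nerves for 4 of 4 (0.69) and the intestinal type for 4 of 4 (0.22). Gastric and endocrine miRNAs were negative for 6 of 7 (median -0.32). Squamous ones were negative for 4 of 5 (median -0.58), at 7022 to 9619 CPM in model and 9352 to 13020 CPM in normal libraries. Leukocyte ones were negative for 7 of 7 (-0.35). No marker passed. The part of these tissues in the miR-30 values was not tested.

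**Figure D3:**
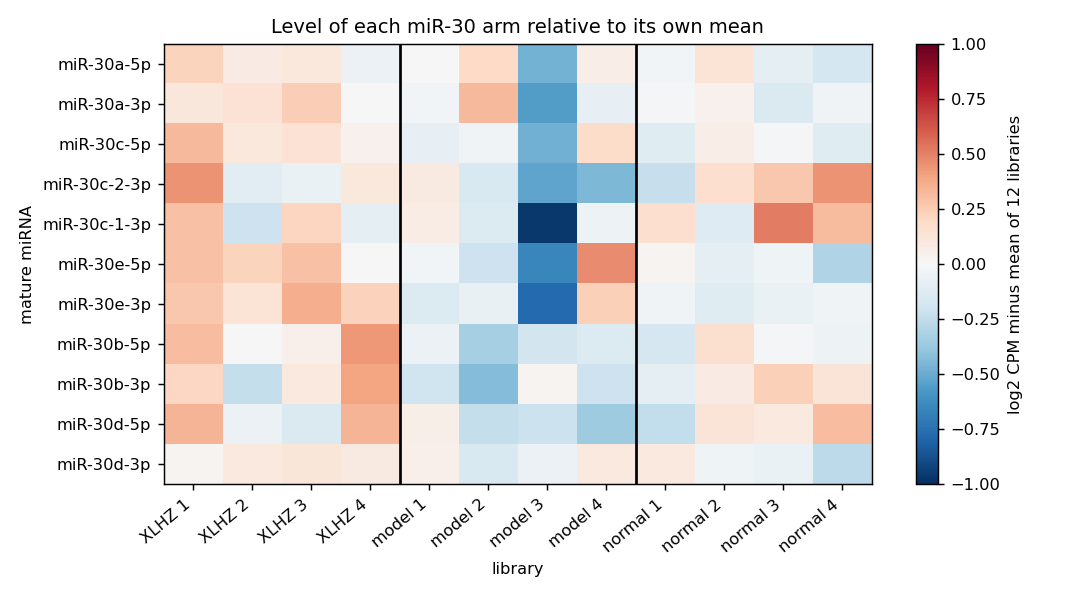
Level of each miR-30 arm in each library, as log2 CPM minus the arm's mean over 12 libraries (red above, blue below), with XLHZ, model and normal libraries from left to right. Model library 3 is the lowest of 12 for 7 arms, and the miR-30e arms are at their highest model value in model library 4.

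The second comparison asked how the family's levels under MNNG with the formula compared to those under MNNG alone. All 11 arms had a higher fitted level with the formula, by 0.079 to 0.38 on the log2 scale, and none passed. The positive share over all 402 miRNAs tested was 51%. With edgeR 0 of 11 arms had an adjusted p under 0.05, against 0.249% of all miRNAs, and DESeq2 and limma-trend called 0. The median log2 fold change was 0.26 over the 11 arms and 0.0057 over all miRNAs. The arms share libraries, so 11 in 1 direction are not 11 independent observations. Without model library 3 the median was 0.072, with 9 positive and 2 negative. Without model libraries 2 and 3 it was 0.13, with the same split.

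miR-30b-5p was the arm with the smallest p in this comparison. It measured 2600.0, 2115, 2182 and 2838 CPM in XLHZ libraries 1 to 4, against 2019, 1675, 1850 and 1917 CPM in model libraries. Each XLHZ library was above each model library, which held for no other arm, and over 401 miRNAs for 0.998% as higher and 0.249% as lower. The lowest XLHZ value exceeded the highest model value by little, 2115 against 2019 CPM. The log2 fold change was 0.36 (SE 0.14, 95% interval 0.046 to 0.68), or 1.29-fold, with an unadjusted p of 0.0292 and an adjusted p of 0.729 (edgeR). It was the 1 arm of 11 under an unadjusted 0.05, where 0.995% of all miRNAs were under it as higher and 3.23% as lower, and DESeq2 and limma-trend also placed this 1 arm there. It was no longer under 0.05 in 4 of the 8 fits without 1 library, with an unadjusted edgeR p of 0.0801 without XLHZ library 1, 0.0944 without XLHZ library 4, 0.0696 without model library 2 and 0.0580 without model library 3. Over the alternatives its adjusted p ranged over 0.307 to 0.984.

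miR-30d-5p, from the same chromosome as miR-30b, measured 11592, 8806, 8316 and 11606 CPM in XLHZ libraries, against 9545, 7757, 7915 and 7157 CPM in model libraries. XLHZ libraries 1 and 4 were above all model libraries and the other 2 were not (log2 fold change 0.30, SE 0.15, adjusted p = 0.729). The same 2 XLHZ libraries held the highest miR-30b-5p of their group. The passenger miR-30b-3p averaged 18.3 ± 3.29 CPM in XLHZ and 14.6 ± 1.91 CPM in model libraries, and miR-30d-3p averaged 29.98 ± 0.835 CPM and 28.0 ± 2.12 CPM in that order. Neither passed.

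miR-30e-3p had the largest fitted difference. It measured 548, 501, 587 and 535 CPM in XLHZ libraries, against the 4 model values above, of which the highest, 538 CPM, lay within the XLHZ span. The log2 fold change was 0.38 (SE 0.21, 95% interval -0.10 to 0.85, adjusted p = 0.729). It was 0.18 without model library 3 and 0.53 without model library 4. miR-30e-5p measured 11414, 10864, 11375 and 9276 CPM in XLHZ libraries, and model library 4, at 12920.4 CPM, was above them all (log2 fold change 0.23, 95% interval -0.26 to 0.72). Without model library 3 its log2 fold change was 0.037, and without model library 4 it was 0.46 (adjusted p = 0.307). miR-30c-5p averaged 7970 ± 672 CPM with the formula and 6735 ± 1234 CPM in model libraries (a log2 fold change of 0.22, adjusted p = 0.743), and the fold change was 0.072 without model library 3. For miR-30a-5p, at 13409 ± 1062 CPM and 12327 ± 2318 CPM in that order, it was 0.10 (adjusted p = 0.880), and -0.060 without model library 3.

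In the same comparison smooth muscle miRNAs ran the other way, with 4 of 4 arms negative, a median of -0.67, and sums of 97611 to 277213 CPM in XLHZ against 145152 to 403505 CPM in model libraries. Striated muscle had 5 of 6 negative (median -0.88) and nerves 4 of 4 (median -0.81), while 7 of 7 leukocyte miRNAs and 4 of 4 erythroid miRNAs were positive (medians 0.21 and 0.69). Gastric and endocrine miRNAs were positive for 5 of 7 (median 0.23), with sums of 21789 to 30579.7 CPM in XLHZ against 11445 to 23931.5 CPM in model libraries, and glandular epithelial ones for 6 of 9 (median 0.14). No marker passed. Their part in the miR-30 values was not tested.

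The third comparison set formula-treated, MNNG-exposed mucosa against normal mucosa. It shares the XLHZ libraries with the second comparison and the normal libraries with the first. The miR-30e arms stood highest, and no arm passed. With edgeR 0 of 11 arms had an adjusted p under 0.05, against 1.5% of 401 miRNAs, and DESeq2 and limma-trend called 0. At an unadjusted p under 0.05, miR-30e-3p and miR-30e-5p were higher in all 3 tools, 2 of 11 where by edgeR 5.24% of all miRNAs were higher and 3.49% lower. Fitted values were positive for 9 of 11 arms, against 49.1% of all miRNAs, with a median of 0.12 over the arms and of -0.0040 over all.

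miR-30e-3p measured 548, 501, 587 and 535 CPM in XLHZ libraries, against 445, 419, 435 and 445 CPM in normal libraries. The 2 groups did not overlap, as was the case for no other arm of the family, and over all miRNAs for 3.99% as higher and 2.24% as lower. The log2 fold change was 0.28 (SE 0.091, 95% interval 0.078 to 0.49), or 1.22-fold, with an unadjusted p of 0.0122 and an adjusted p of 0.449 (edgeR). With DESeq2 the adjusted p was 0.0914, the lowest for any arm in any alternative, and over all alternatives that of miR-30e-3p ran up to 0.891. miR-30e-5p measured 11414, 10864, 11375 and 9276 CPM in XLHZ libraries, against 9484, 8759, 9025 and 7536 CPM in normal libraries. Its groups overlapped through XLHZ library 4, which lay under normal library 1. The log2 fold change was 0.27 (SE 0.091, 95% interval 0.065 to 0.48, adjusted p = 0.449). Both arms kept a positive value without any 1 library, over 0.27 to 0.33 for miR-30e-3p and 0.22 to 0.34 for miR-30e-5p. Without XLHZ library 3, miR-30e-5p had an unadjusted p of 0.0674 (edgeR).

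miR-30c-5p, of which one locus neighbours Mir30e, measured 8928, 7689.9, 7885 and 7377 CPM in XLHZ libraries and 6568, 7468, 7045 and 6571 CPM in normal ones. Of the XLHZ libraries 3 were above all normal ones (log2 fold change 0.17, SE 0.079, 95% interval -0.0052 to 0.35, adjusted p = 0.567). The passenger arms of miR-30c had the 2 negative values of the family, -0.20 for miR-30c-1-3p and -0.11 for miR-30c-2-3p (adjusted p of 0.730 and 0.846). miR-30b-5p had 0.20 (95% interval -0.084 to 0.48, and 0.12 without XLHZ library 4), miR-30a-5p 0.094, miR-30a-3p 0.13, miR-30d-3p 0.12, miR-30d-5p 0.023 and miR-30b-3p 0.010, with adjusted p between 0.640 and 0.994. Smooth muscle miRNAs had a median of -0.058 here, with 4 of 4 negative. Squamous miRNAs were negative for 4 of 5 (median -0.34). Leukocyte miRNAs were negative for 5 of 7 (median -0.165), and gastric and endocrine ones for 5 of 7 (-0.12). The intestinal type was positive for 3 of 4 (median 0.095) and glandular epithelial miRNAs for 5 of 9 (0.020). Erythroid miRNAs were positive for 3 of 4 (median 0.74), and miR-144-5p of that list was the 1 cell type marker called in any comparison, as higher in XLHZ. The part of these lists in the miR-30 values was not tested.

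The make-up of the 5p pool does not depend on scaling between libraries. miR-30a-5p made up 30.1 ± 1.53% of summed 5p counts in XLHZ, 32.3 ± 3.25% in model and 30.9 ± 1.91% in normal libraries. miR-30c-5p took 17.9 ± 0.521%, 17.7 ± 0.843% and 17.4 ± 0.321%. miR-30e-5p took 24.1 ± 2.16%, 23.3 ± 4.53% and 22.0 ± 2.41%, miR-30d-5p took 22.6 ± 3.41%, 21.7 ± 4.38% and 24.5 ± 3.73%, and miR-30b-5p took 5.46 ± 0.756%, 4.99 ± 0.865% and 5.23 ± 0.257%, each in XLHZ, model and normal libraries in that order. Each difference between group means was smaller than the larger SD of the groups compared. The balance of miR-30e-5p and miR-30d-5p varied most. Their ratio was 0.985, 1.23, 1.37 and 0.799 in XLHZ, 0.957, 1.04, 0.749 and 1.81 in model, and 1.23, 0.873, 0.922 and 0.665 in normal libraries. Each group thus held libraries on both sides of 1.

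**Figure D4:**
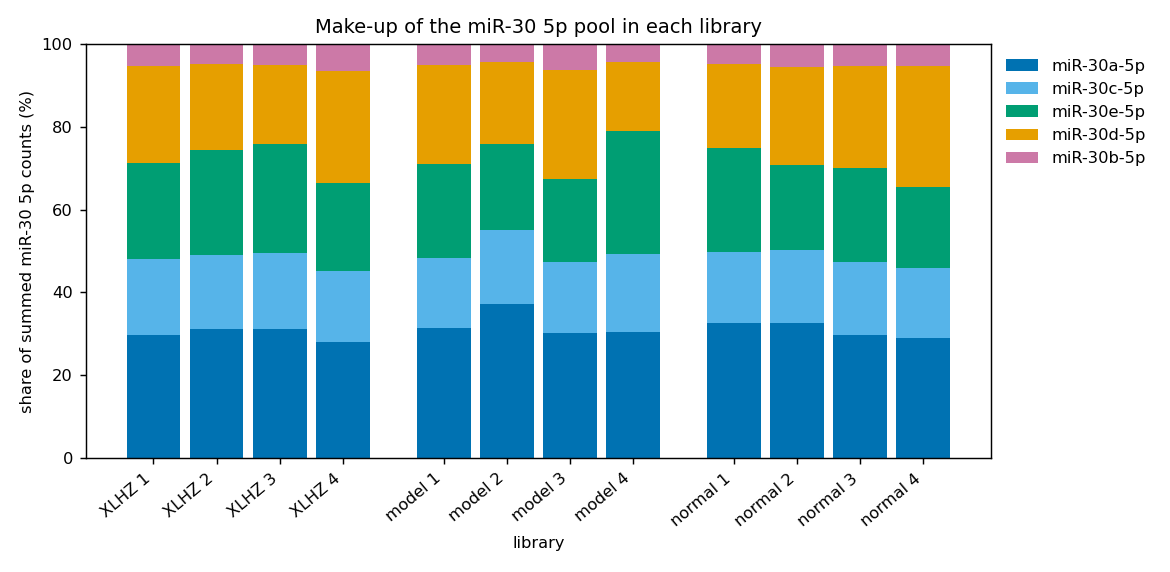
Share of the summed miR-30 5p counts taken by each 5p arm (stacked bars, in percent) in each XLHZ, model and normal library. miR-30e-5p runs up to 29.8% in model library 4, where miR-30d-5p is at 16.5%, and miR-30d-5p runs up to 29.3% in normal library 4, where miR-30e-5p is at 19.5%.

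The arms differed in how alike their profiles over the libraries were. The distance used is the root mean square difference, over the 12 libraries, of log2 CPM after each arm's mean was removed. It was 0.0977 between both arms of miR-30a, 0.144 between both arms of miR-30e and 0.147 between both arms of miR-30b, but 0.286 between both arms of miR-30d. miR-30c-1-3p and miR-30e-5p, whose hairpins neighbour each other, were 0.323 apart. Between guides it was 0.100 for miR-30a-5p and miR-30c-5p, 0.148 for miR-30c-5p and miR-30e-5p, and 0.151 for miR-30b-5p and miR-30d-5p. It was 0.386 for miR-30d-5p and miR-30e-5p, which was exceeded within the family by 0.403 for miR-30c-2-3p and miR-30e-5p alone. miR-30c-2-3p lay nearer to miR-30d-5p (0.144) than to its own guide miR-30c-5p (0.286). These distances are descriptions, and all arms share the same libraries.

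Outside the family, the 141 other miRNAs with a mean of at least 100 CPM were ranked by the same distance. The nearest to miR-30b-5p were miR-339-5p (0.168), miR-186-5p (0.171) and miR-25-3p (0.176), with a median of 0.320 over the 141. The nearest to miR-30e-5p were miR-340-5p (0.150), miR-141-3p (0.154) and miR-3068-5p (0.166), and those to miR-30e-3p were miR-1839-5p (0.149), miR-221-3p (0.152) and miR-3068-5p (0.166), with a median of 0.402 for both.

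The strand balance of each hairpin was measured as 5p counts per 3p count. miR-30e had 19.8 ± 1.90 in XLHZ, 21.8 ± 2.24 in model and 19.98 ± 2.05 in normal libraries. miR-30a had 27.4 ± 2.03, 28.8 ± 2.26 and 28.1 ± 1.95 in that order, and miR-30b had 134 ± 11.7, 129 ± 13.6 and 117 ± 12.4. miR-30d had the most one-sided and most variable balance, at 337 ± 66.3, 289.7 ± 37.8 and 366 ± 92.7. Every miR-30d value thus lay above every value of the other 3 hairpins.

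**Figure D5:**
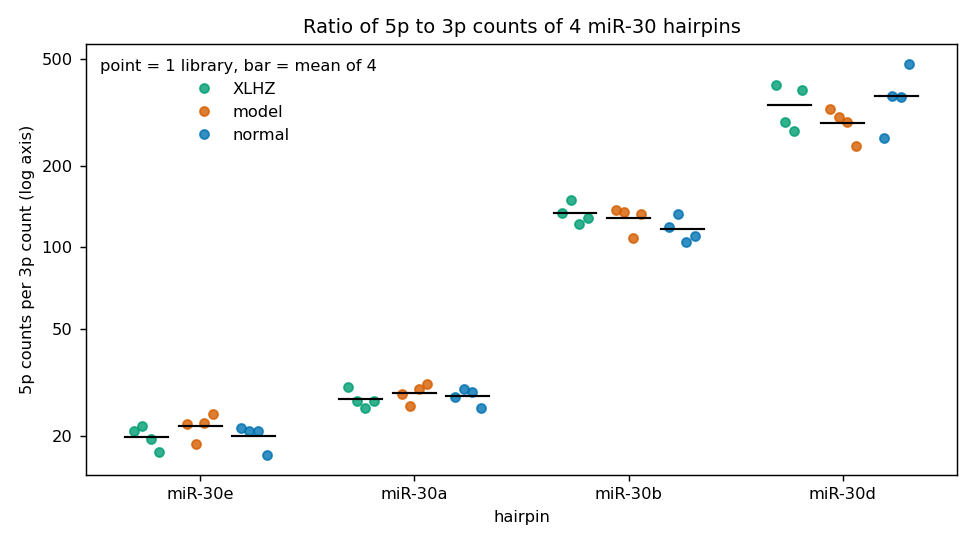
Counts of the 5p arm per count of the 3p arm (log axis) for 4 hairpins, with a point for each XLHZ, model and normal library and a bar at the mean of 4. miR-30e lies between 16.9 and 24.0 in every library, and miR-30d between 237 and 482.

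The ratio did not pass for any of these 4 hairpins. limma on log2 ratios, adjusted over all hairpins with both arms at a mean of at least 10 counts, called 0 of 4 in model against normal (0.806% of 124 hairpins), 0 of 4 in XLHZ against model (0% of 126) and 0 of 4 in XLHZ against normal (2.42% of 124), and 0 of 4 had an unadjusted p under 0.05 in each. The largest difference was that of miR-30d in model against normal, -0.31 on the log2 scale (SE 0.20, adjusted p = 0.491). miR-30b in XLHZ against normal had 0.19 (SE 0.12, adjusted p = 0.628). For miR-30c, whose guide comes from 2 loci, the guide per summed 3p count was 67.0 ± 7.34 in XLHZ, 72.04 ± 15.6 in model and 55.2 ± 9.97 in normal libraries. miR-30c-2-3p exceeded miR-30c-1-3p by 5.29 ± 0.740, 5.25 ± 1.24 and 5.01 ± 1.12 times in that order.

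Other hairpins with miRNAs that act on Snai, Zeb or related factors were taken as a list. They were those of miR-200a, miR-200b, miR-200c, miR-141, miR-429, miR-205, miR-203 and miR-34. The list held 19 arms, passenger arms among them, and whether each arm acts on these factors was not tested. None of 17 tested passed in model against normal (median -0.11) and none of 16 in XLHZ against model (median 0.056). In XLHZ against normal 2 of 17 fell and none rose (median -0.056), where 1.5% of all miRNAs were called. The 2 were 3p arms of the p53-regulated miR-34 group, miR-34b-3p and miR-34c-3p. The most abundant of the list was miR-200a-3p, a repressor of Zeb1 and Zeb2. It measured 27279.6 ± 2197 CPM in XLHZ, 24385 ± 4576 CPM in model and 26312 ± 2249 CPM in normal libraries. Next, miR-200b-3p had close group means, at 23275 ± 1716 CPM, 23213 ± 5139 CPM and 22863 ± 1962 CPM in that order. miR-429 had its highest mean in model libraries, at 15410 ± 1759 CPM, 16429 ± 4127 CPM and 14708 ± 1467 CPM in that order. miR-141-3p, which was among the nearest to miR-30e-5p above, measured 11373 ± 813 CPM, 9285 ± 3414 CPM and 9913 ± 294 CPM in that order, and it did not pass in any comparison. The 5p arms of miR-30 summed to 44625 ± 3065 CPM in XLHZ, 38035 ± 5749.7 CPM in model and 39703 ± 1974 CPM in normal libraries.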

How the data were processed

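Small RNA libraries were built with a QIAseq kit, per the labels' protocols. The sources used here do not say whether counts are of reads or of molecular identifiers, or give the build and counting rule. The submitters' processing notes list Bowtie and DESeq with no version. The authors deposited raw counts per mature miRNA in 2 tables, per the file headers, with 639 and 632 miRNAs. The deposited CPM columns equal the count scaled to the column total (largest difference 5.0e-05) and were used for that check alone. The model counts of 1 miRNA, miR-20b-3p, differed between tables, and it was left out of joined values. The 17 and 10 miRNAs absent from either table, with 3 counts or fewer, were set to 0 in the other. Near-identical arms can share reads.

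Each comparison used its own 8 libraries: edgeR 4.0.16 quasi-likelihood tests, TMM factors, a minimum count of 10 in filterByExpr, and Benjamini-Hochberg adjustment over all miRNAs tested at 0.05, in R 4.3.3. All 11 arms passed the filter in each comparison. Standard errors are the log2 fold change over the square root of F, and intervals use the t distribution. Arm ratios, with 0.5 added to each count, were tested with limma 3.58.1. Levels are TMM-scaled over 12 libraries. The procedure was tested on simulated counts. DESeq2 1.42.0 and limma-trend were alternatives, with other scalings, other filters, a robust fit, 1 fit of all libraries, a replicate block, each library left out, and model libraries 2 and 3 left out. The members, lists and tests were chosen with earlier results of these data known. All 11 arms are named. Outside them the 3 nearest miRNAs by profile to each of 3 arms, miR-143-3p and up to 4 abundant members of the epithelial list are named. miR-384-5p was added after its values were seen, as were the 2 miR-34 arms. No 2 libraries of a group agreed within counting error (lowest chi-square per degree of freedom 192).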

Additional observations from a re-analysis of the deposited data

Results flagged for a closer look

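In 84 groups of 4 libraries examined for a library far from the other 3, 3 stood out, and chance gives about 1 in 20. The summed miR-30 5p level of XLHZ library 1 was 49211 CPM, against 42804 to 43302 CPM in the other XLHZ libraries. The share of miR-30a-5p in 5p counts was 37.2% in model library 2, against 30.3% to 31.4% in the other model libraries. The 5p-to-3p ratio of miR-30e was 16.9 in normal library 4, against 20.8 to 21.3 in the other normal libraries.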

How the results depend on the processing

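Over the 3 comparisons, no miR-30 arm passed in 35 refits under other settings or in 24 without 1 library, and no arm ratio passed in 9 and 24. The lowest adjusted p was 0.0914. Some directions turned, and the cause was not tested. In model against normal, miR-30a-3p had 0.017 with RLE factors and with DESeq2, 0.035 with upper-quartile factors, 2.43e-05 in 1 fit of all libraries and 0.015 without model libraries 2 and 3. miR-30a-5p had -0.10 on library totals, -0.028 on totals without the 5 most abundant miRNAs, -0.017 with limma-trend and -0.016 with the replicate block. miR-30e-5p had -0.022, -0.0045 and -0.0067 on totals, with limma-trend and with the block. miR-30d-3p had -0.058 on totals, and miR-30c-5p 0.018 with upper-quartile factors. Without model libraries 2 and 3, miR-30c-5p had 0.14 and miR-30e-3p 0.16, and in XLHZ against model miR-30d-3p had -0.038 and miR-30e-5p -0.091. In XLHZ against normal, miR-30b-3p had -0.0050 with no count filter, -0.0042 with limma-trend and -0.0034 with the block. Without 1 library, values in model against normal ranged over -0.16 to 0.18 (miR-30a-3p), -0.081 to 0.18 (miR-30a-5p), -0.14 to 0.13 (miR-30c-5p), -0.23 to 0.14 (miR-30e-3p) and -0.17 to 0.26 (miR-30e-5p). In XLHZ against model they ranged over -0.013 to 0.31 (miR-30a-3p) and -0.060 to 0.18 (miR-30a-5p), and in XLHZ against normal over -0.086 to 0.10 (miR-30b-3p), -0.22 to 0.0072 (miR-30c-2-3p) and -0.064 to 0.13 (miR-30d-5p). Ratio changes ranged over -0.014 to 0.085 (miR-30a, model against normal), -0.022 to 0.10 (miR-30b, XLHZ against model), -0.27 to 0.040 (miR-30d) and -0.089 to 0.051 (miR-30e), both in XLHZ against normal. Of all miRNAs, model against normal had 1 called, but 1 to 7 over the alternatives (7 with DESeq2). XLHZ against normal had 6, but 2 to 7 (2 in 1 fit of all libraries). XLHZ against model had 1, but 0 without model libraries 2 and 3. It also had 0 without XLHZ library 1, without XLHZ library 4 and without any 1 model library. On library totals the median of all miRNAs moved to -0.12 in model against normal and 0.17 in XLHZ against model.

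The replicate block gave 0 arms called in each comparison, as did the fits without it. Same-numbered libraries did not deviate together throughout (correlations of -0.310 to 0.460). The labels state no pairing, and such correlations cannot decide whether the numbers pair the libraries. The smallest arm had 88 counts in its lowest library.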
